A study of Mus musculus with 3 samples.

Results

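The region described here is a stretch of 7 Mb of mouse chromosome 5, from 102000000 to 109000000, that holds the guanylate-binding protein (Gbp) genes Gbp8, Gbp9, Gbp4, Gbp10, Gbp6 and the pseudogene Gbp11, and beside them Lrrc8b, Lrrc8c and Lrrc8d. Its members are all ATRX ChIP-seq peaks that lie whole between these bounds, 408 of 112153 peaks in the control list and 301 of 105674 in the MICAL1-FL list. That is 709 of 217827 peaks in all. The region was chosen on the peak numbers of these same lists, because fewer MICAL1-FL than control peaks lay around the Gbp genes, so its peak numbers are a description and no test of them is given.

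ATRX is a chromatin remodeller known to place the histone variant H3.3 at repeats together with DAXX. Guanylate-binding proteins are large GTPases of the dynamin superfamily that interferon induces strongly, and they are known for defence against microbes inside the cell. In the mouse their genes lie in tandem arrays on chromosomes 3 and 5. The LRRC8 proteins have leucine-rich repeats and form the volume-regulated anion channel, through which cells, neurons and glia among them, release chloride and organic osmolytes when they swell. LRRC8A is its obligatory subunit, and LRRC8B to LRRC8E join it in varying mixtures.

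The neurons of both libraries were primary cultures from C57BL6/J mouse embryos (E15.5-17.5). Lentivirus was added on culture day 5, and chromatin of day 14 was cut by enzyme and pulled down with an antibody to ATRX. The virus gave mCherry to the control neurons and MICAL1-FL to the others. MICAL1 is an enzyme that oxidises actin filaments and so takes them apart. The promoter of the transgene, the brain area, and whether a library pools several embryos or cultures are not given in the labels. The comparison asks whether ATRX lies at different places in the 2 conditions. There was 1 peak list per condition, so no difference has a replicate check and no p-value between conditions is given. Intervals are exact 95% intervals that cover counting error only. Peak identifiers in the MICAL1-FL list carry a name other than MICAL1-FL, and the group rests on the sample title. A peak list does not measure expression, so the labelled cell type could not be checked against markers. It also holds no signal between peaks, so a gene without a peak need not be free of ATRX.

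Peaks were shallow. A peak's depth, the number of ChIP fragments over its summit, was recovered from the authors' fold and p, and its median was 5 fragments in the region in both lists, as on all autosomes. Depth ran from 4 to 12 in the region in both lists. The authors' q was below 0.05 for 1 control and 2 MICAL1-FL peaks of the region and equal to 1 for 93.4% and 96.7%. Median widths were 341.5 and 337 bp, against 335 and 332 bp on all autosomes.

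The 3 Lrrc8 promoter stretches below each met a peak of 1 list and none of the other, and they are shown for that reason. Of autosomal promoters, 9.58% met the control list and 9.71% the MICAL1-FL list. The share that met 1 list alone was not counted, so nothing is read from this status. The stretches shown are the 250 bases before a RefSeq transcription start on the plus strand of GRCm38.p6, with CpG dinucleotides in capitals. Promoters of the 6 Gbp genes of the region were not matched in the RefSeq table. The Lrrc8b stretch is chr5:105415525-105415774, the Lrrc8c stretch chr5:105519221-105519470 and the Lrrc8d stretch chr5:105699719-105699968.
Lrrc8b: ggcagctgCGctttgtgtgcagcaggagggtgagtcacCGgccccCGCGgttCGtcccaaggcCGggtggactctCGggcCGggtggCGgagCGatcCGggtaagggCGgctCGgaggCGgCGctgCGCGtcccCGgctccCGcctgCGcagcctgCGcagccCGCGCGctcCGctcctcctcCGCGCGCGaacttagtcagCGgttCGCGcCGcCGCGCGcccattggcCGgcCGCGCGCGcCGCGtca
Lrrc8c: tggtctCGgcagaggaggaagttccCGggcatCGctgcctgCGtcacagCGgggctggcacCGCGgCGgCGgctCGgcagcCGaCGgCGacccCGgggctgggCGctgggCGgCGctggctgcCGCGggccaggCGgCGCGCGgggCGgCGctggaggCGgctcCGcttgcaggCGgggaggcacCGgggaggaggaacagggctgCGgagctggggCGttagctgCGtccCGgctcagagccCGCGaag
Lrrc8d: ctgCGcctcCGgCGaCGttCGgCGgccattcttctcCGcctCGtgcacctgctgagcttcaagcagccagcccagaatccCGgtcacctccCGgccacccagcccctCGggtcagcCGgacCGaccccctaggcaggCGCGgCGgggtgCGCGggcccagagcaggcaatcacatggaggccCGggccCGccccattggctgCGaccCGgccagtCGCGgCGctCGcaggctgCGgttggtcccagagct

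These stretches are rich in CpG, the dinucleotide that marks CpG islands. Lrrc8b has 43 CpG in 250 bases, Lrrc8c 35 and Lrrc8d 27, where the median autosomal promoter has 6. As many CpG or more stood in 0.733%, 3.08% and 8.83% of autosomal promoter stretches of the same length. The Lrrc8b stretch met a MICAL1-FL peak, and those of Lrrc8c and Lrrc8d met control peaks. A further start of Lrrc8d, not shown, met a MICAL1-FL peak. Which list a stretch met also rests on where it ends. Shortly past the Lrrc8b stretch a control peak began at 105415969. Past the Lrrc8d stretch one of the MICAL1-FL list began at 105700138.

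Control neurons had more ATRX peaks in the region than the genome-wide density gives, and MICAL1-FL neurons had about their genome-wide density. The control list held 58.3 peaks per Mb in the region against 44.8 on all autosomes, and the MICAL1-FL list 43.0 against 42.4. The MICAL1-FL to control ratio of peak numbers was 0.738 (0.634 to 0.858) in the region, 0.929 (0.897 to 0.962) on the rest of chromosome 5 and 0.947 on all autosomes. Ratios written as relative below are divided by this autosomal value.

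The lower MICAL1-FL numbers lay in 3 neighbouring windows of 500 kb. The region holds 14 such windows, numbered here in chromosome order. Window 6, from 104500001 to 105000000, held 54 control and 22 MICAL1-FL peaks (ratio 0.407, 0.236 to 0.680). Window 7, from 105000001 to 105500000, with all 6 Gbp genes and Lrrc8b, held 42 and 22 (ratio 0.524, 0.298 to 0.898). Window 8, from 105500001 to 106000000, with Lrrc8c and Lrrc8d, held 53 and 24 (ratio 0.453, 0.267 to 0.747). The MICAL1-FL numbers of these windows are close to the list's autosomal density, while the control numbers are well above theirs. These 3 windows have the lowest ratios of the region, and that choice favours high control numbers. The share of autosomal windows with as many control peaks was not counted.

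Of the 12 windows with at least 20 peaks of both lists together, 4 had a relative ratio at least 1.5 times lower, among them window 3 with 42 and 26 peaks, and 0 had one at least 1.5 times higher. On all autosomes 9.76% of such windows were at least 1.5 times lower and 11.3% at least 1.5 times higher. The share in the region cannot be read as a finding, since the region was picked for its low ratio.

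**Figure D1:**
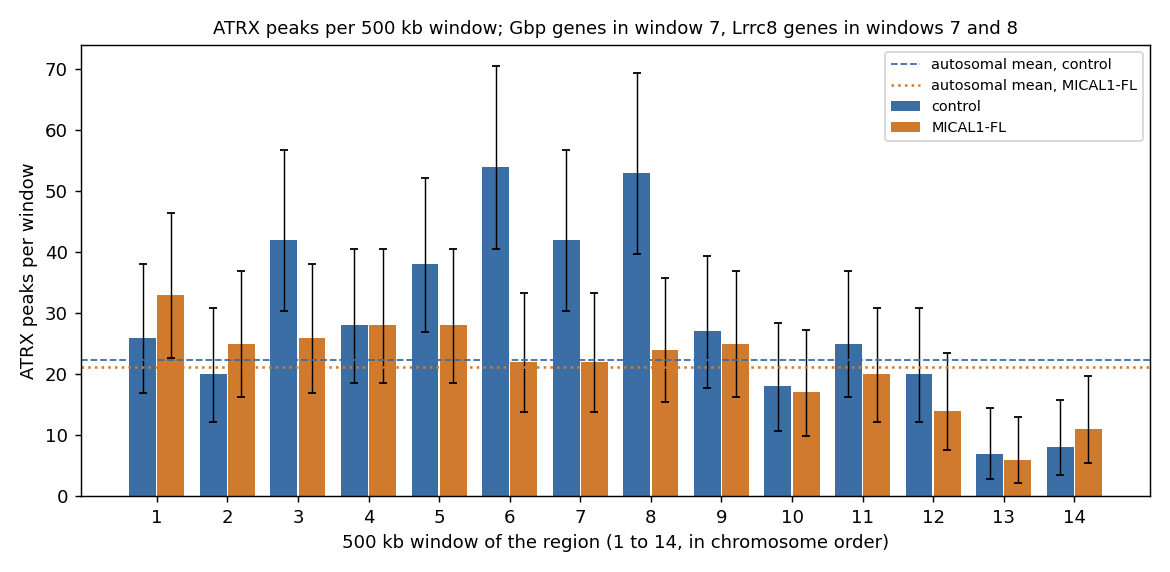
Number of ATRX peaks (y axis) in each of the 14 windows of 500 kb of the region (x axis, chromosome order) in the control list (blue) and the MICAL1-FL list (orange), with exact 95% Poisson intervals as bars and the autosomal mean per window of each list as broken lines. Windows 6 to 8 reach 54, 42 and 53 control peaks and 22, 22 and 24 MICAL1-FL peaks, and the latter sit near the autosomal mean.

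Together windows 6 to 8 held 149 peaks in the control and 68 in MICAL1-FL neurons (ratio 0.456, 0.337 to 0.612), or 99.3 and 45.3 peaks per Mb. Of all autosomal stretches of 3 such windows with at least 60 peaks, 1.94% had a relative ratio at least 1.5 times lower. This stretch was put together after its values were seen. The other 11 windows held 259 and 233 peaks, a ratio of 0.900 (0.750 to 1.08). Taking out the lowest windows raises this ratio by construction, so nothing is read from its place beside the autosomal value. Among those, window 1 held 26 and 33 peaks and window 2 held 20 and 25, more in the MICAL1-FL list, and window 4 held 28 in each. Windows 13 and 14 were poor in both lists, with 7 and 6 peaks in the former and 8 and 11 in the latter. Just outside the bounds, the windows before and after the region held 24 and 15, and 2 and 1 peaks.

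Inside the Gbp genes the MICAL1-FL list had no peak at all. The 6 genes together cover 171 kb and overlapped 12 control and 0 MICAL1-FL peaks. The exact interval of the ratio reaches from 0 to 0.360. Between the Gbp genes there were 8 control and 3 MICAL1-FL peaks. The whole array, from the first to the last Gbp gene with 5 kb on both sides, thus held 20 and 3 peaks (ratio 0.15, 0.0285 to 0.506), or 58.1 and 8.72 peaks per Mb. Of 6917 autosomal stretches as long as the array without flank and with at least 10 peaks, laid end to end, 5 had a ratio as low or lower, which is 0.0723%. This set was counted after the values had been seen, and the array was part of what chose the region.

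Gbp4 had the most control peaks of the family. It overlapped 4 control peaks, at 105119985 to 105120331, 105134228 to 105134553, 105135042 to 105135338 and 105136544 to 105137384, with depths of 5, 6, 5 and 5 fragments. One more control peak, 6 fragments deep, lay within 5 kb of it at 105140710 to 105141180. The MICAL1-FL list had 0 peaks in this gene and 0 within 5 kb.

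Gbp9 overlapped 3 control peaks, between 105087909 and 105095605, with depths of 5, 6 and 4 fragments. Gbp8 overlapped 2 control peaks, both 6 fragments deep, at 105022231 to 105022589 and 105030688 to 105030945. Neither gene had a MICAL1-FL peak within the gene or 5 kb. The 3 genes Gbp8, Gbp9 and Gbp4 lay inside a single MICAL1-FL gap, from 104965438 to 105189405. It is 224 kb long, it held 16 control peaks, and 0.196% of the autosomal gaps between neighbouring MICAL1-FL peaks were as long. It was not the longest MICAL1-FL gap of the region. A gap of 266 kb, from 108100437 to 108366537 and away from the Gbp genes, held 3 control peaks. As long were 0.131% of the autosomal gaps. The median gap of that list was 12.5 kb in the region and 13.4 kb on all autosomes.

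Gbp10 and Gbp6 overlapped 1 control peak each, at 105220788 to 105221094 and 105290234 to 105290526, both 7 fragments deep, which made them the deepest of the array. They lay in a further MICAL1-FL gap of 115 kb with 5 control peaks, and 1.46% of the autosomal gaps of that list were as long. Gaps of such length also lay elsewhere in the region. One of the MICAL1-FL list, at Gak, Tmem175 and Dgkq, was 118 kb long, and the longest of the control list was 127 kb. Gbp11 overlapped 1 control peak, 4 fragments deep, at 105343594 to 105343908, and its 5 kb flank held 1 MICAL1-FL peak. All 3 MICAL1-FL peaks of the array lay between genes, at 105189406 to 105189742, 105305021 to 105305271 and 105320552 to 105320900, and each was 5 fragments deep. None of the 20 control peaks of the array overlapped any of them. Of the 8 control peaks between the genes, 3 lay in the pseudogene Gm9640, 4 to 6 fragments deep.

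Each Gbp gene alone rests on few peaks. Of the 5 protein-coding Gbp genes, all had a control peak within 5 kb and none had a MICAL1-FL peak. Among autosomal protein-coding genes with a control peak, 24.1% had no MICAL1-FL peak, and in the region these were 18 of 57. Gbp genes are similar in sequence, and how uniquely reads map to them was not measured. The background fragments expected at a peak come from the input per the labels' protocols, and only an input of control neurons is listed. They were at the lowest value of the list for 18 of the 20 control peaks and all 3 MICAL1-FL peaks of the array. On all autosomes 63.1% and 68.7% of peaks were at that value, so it need not be a local reading of the input. With peaks at least 6 fragments deep only, the array held 8 control and 0 MICAL1-FL peaks. With 25 kb on both sides it held 25 and 7, a relative ratio of 0.296 in place of 0.158.

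**Figure D2:**
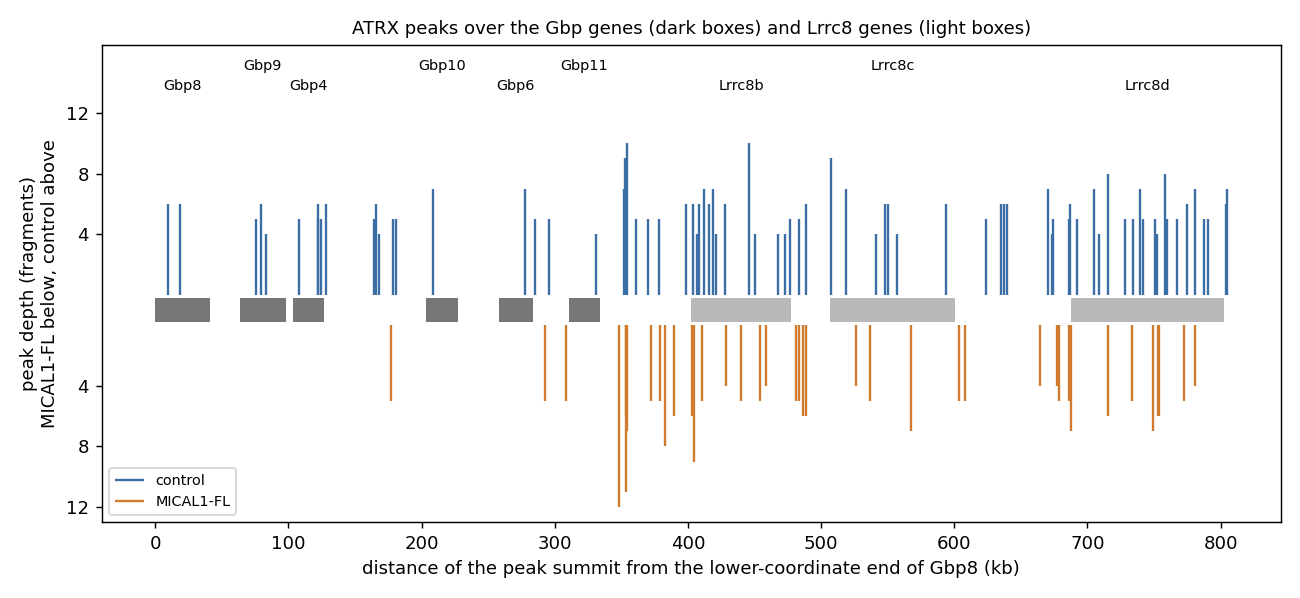
ATRX peaks over the Gbp genes (dark boxes) and the Lrrc8 genes (light boxes), placed by the distance of the summit in kb from the lower-coordinate end of Gbp8 (x axis), with peak depth in fragments as line length (y axis, control above in blue, MICAL1-FL below in orange). The dark boxes carry 12 control and 0 MICAL1-FL peaks, and the tallest MICAL1-FL lines, at depths of 12 and 11, stand between Gbp11 and Lrrc8b.

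In the space between the 2 arrays the numbers of the lists were close. Over the 68.7 kb from the end of Gbp11 to Lrrc8b there were 7 control and 8 MICAL1-FL peaks (ratio 1.14, 0.362 to 3.70). The strongest MICAL1-FL peaks of the region lay there. The first covered 105360110 to 105361064, was 12 fragments deep with a fold of 4.37 and a q of 0.00430, and overlapped no control peak. The next covered 105365476 to 105365882, was 11 deep with a fold of 4.11 and a q of 0.0197, and overlapped a control peak 9 deep with a fold of 3.51 at 105365467 to 105365880. A wide control peak beside it, at 105366130 to 105367507 and 10 deep, overlapped 2 MICAL1-FL peaks of 6 and 7 fragments. No annotated gene lies at the summits of these peaks.

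The Lrrc8 genes were densely covered in both lists and more so in the control. The array from Lrrc8b to Lrrc8d with 5 kb on both sides held 51 and 29 peaks (ratio 0.569, 0.348 to 0.914), or 124 and 70.7 peaks per Mb, both above the autosomal density. The genes alone overlapped 37 and 19 peaks. Leaving out peaks under 6 fragments gave 27 and 10.

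Lrrc8d, the subunit known to let larger organic osmolytes through the channel, had 21 control and 9 MICAL1-FL peaks at the gene or up to 5 kb away (ratio 0.429, 0.173 to 0.976). Its promoter stretch printed above was overlapped by a control peak at 105699595 to 105699886, 6 fragments deep and with its summit 148 bp before the start. The MICAL1-FL peak nearest to that start covered 105700138 to 105701098, was 7 deep and had its summit 600 bp after it. Further inside the gene, a control peak of 8 fragments at 105727921 to 105729046 and a MICAL1-FL peak of 6 fragments at 105728022 to 105728298 had summits 41 bp apart. A weaker pair, 4 and 6 fragments deep, lay at 105765093 to 105765381 and 105765155 to 105765608.

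Lrrc8b, another accessory subunit, had 14 control and 9 MICAL1-FL peaks (ratio 0.643, 0.245 to 1.59). The third strongest MICAL1-FL peak of the region lay just inside it, at 105416572 to 105417242, 9 fragments deep with a fold of 3.82 and a q of 0.139. Near its start the MICAL1-FL list also had a peak at 105415324 to 105415598, which overlaps the promoter stretch. A control peak 6 deep at 105415969 to 105416276 met a MICAL1-FL peak 4 deep with summits 47 bp apart. The strongest control peak of this gene, 10 deep with a fold of 3.32 at 105458128 to 105458648, had no MICAL1-FL counterpart.

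Lrrc8c, an accessory subunit as well, had 7 control and 4 MICAL1-FL peaks (ratio 0.571, 0.123 to 2.25). Its start lay under a control peak of 1306 bp, from 105518993 to 105520298, that was 9 fragments deep with a fold of 3.51 and covered the whole promoter stretch. The MICAL1-FL peak nearest to that start was 18382 bp away. For each of the 3 Lrrc8 genes the counting interval includes the autosomal ratio. The order of the 3 by ratio turned with the peaks counted. With all peaks and 5 kb Lrrc8d had the lowest relative ratio, 0.453. Without the flank Lrrc8c was lowest, at 0.453 against 0.497 for Lrrc8d. With peaks of at least 6 fragments the numbers were 8 and 2 for Lrrc8b, 5 and 1 for Lrrc8c and 9 and 5 for Lrrc8d, which then had the highest of the 3 relative ratios, 0.644.

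Promoter peaks were counted over all genes of the region, the Lrrc8 genes included. Of 95 genes with a promoter in the RefSeq table, 16 had a control peak there (16.8%, 9.94 to 25.9) and 10 a MICAL1-FL peak (10.5%, 5.16 to 18.5), where all autosomal genes had 10.4% and 10.7%. Both regional intervals include the autosomal share. Both lists had one at 4 of these genes. The shares of autosomal genes with one in both lists, or in 1 list alone, were not counted. Whether 4 is few or many is therefore not known. Among the genes with a promoter peak in the control list alone were Zfp951, a zinc finger gene, and Aff1, which encodes a factor of transcription elongation. Barhl2, a homeobox gene of neural development, and Ibsp, a bone matrix gene, had one in the MICAL1-FL list alone.

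The part of windows 6 to 8 before the Gbp array held 55 control and 22 MICAL1-FL peaks (ratio 0.400, 0.232 to 0.667). Gm31255 had 12 control and 4 MICAL1-FL peaks within the gene and 5 kb (interval of the ratio 0.0784 to 1.10). The zinc finger gene Zfp33b had 11 and 6 (0.166 to 1.61), and Zfp951 had 8 and 3 (0.0641 to 1.56). Zfp33b held 4 pairs of overlapping peaks of the lists, as many as the far longer Arhgap24. At the strongest pair in Zfp33b the control peak was 10 fragments deep (104582402 to 104582796, fold 3.75) and the MICAL1-FL peak 8 deep (fold 3.44). Thoc2l had 4 control and 0 MICAL1-FL peaks (0 to 1.51). Abcg3, an ABC transporter gene just before Gbp8, had 3 of each. Each of these intervals includes the autosomal ratio, so no single gene there differed beyond counting error.

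After the Lrrc8 array, the rest of window 8 held 17 control and 6 MICAL1-FL peaks, with the zinc finger gene Zfp326 at 5 and 1. Of the 18 protein-coding and Gbp genes that reach into windows 6 to 8, all had a peak in either list, 16 had more control peaks and 2, Abcg3 and Gbp11, had equal numbers. Of the 57 other genes of the region, 22 had more control peaks, 12 equal numbers and 12 more MICAL1-FL peaks, and 11 had no peak in either list. Windows 6 to 8 were picked for their low ratios, so a majority of genes with more control peaks there follows from that choice. The share of autosomal genes with more control peaks was not counted. Neighbouring genes share peaks in their flanks, so these counts are not independent.

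Among genes with at least 10 peaks of both lists together, 6 of 13 in the region had a relative ratio at least 1.5 times lower in the MICAL1-FL list and 1 at least 1.5 times higher. On all autosomes 20.8% and 18.7% of such genes did. The share of genes in the region cannot be read as a finding either, since the region was picked for its low ratio. The 6 were Mapk10, Zfp33b, Gm31255, Zfp951, Lrrc8c and Lrrc8d, and all but Mapk10 lie in windows 6 to 8. Mapk10, which encodes the neuronal stress kinase JNK3, had 27 control and 14 MICAL1-FL peaks (ratio 0.519, 0.251 to 1.02). It also held the control peak of lowest p in the region, at 103177528 to 103178012, 10 fragments deep with a fold of 4.20 and a q of 0.0338. After this one and the Zfp33b peak, the next control peaks by p were 3 of 9 fragments with a fold of 3.81, at 102745628 in Arhgap24, at 104595330 outside annotated genes and at 107986608 in Dipk1a. In the MICAL1-FL list, peaks of 8 fragments with a fold of 3.44 came next after the 3 deepest and were tied, among them 103679967 outside genes and 104000074 in Hsd17b11.

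Other genes with at least 10 peaks lay on both sides of the autosomal ratio. Arhgap24, which encodes a GTPase-activating protein, had the most peaks of the region, 31 control and 44 MICAL1-FL peaks (ratio 1.42, 0.876 to 2.32). Ptpn13, a tyrosine phosphatase gene, had 5 and 10, the 1 gene past the higher bound. The TGF-beta co-receptor gene Tgfbr3 had 10 of each, Aff1 9 and 10, the autophagy adaptor gene Wdfy3 11 and 7, and Evi5, a regulator of vesicle traffic, 9 and 6. Wdfy3 and Evi5 had relative ratios of 0.672 and 0.704, just short of the bound for lower genes. Wdfy3 reaches past the lower bound of the region, and its count includes peaks outside it. The counting intervals of these genes include the autosomal ratio, and so do those of the 6 genes past the lower bound.

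**Figure D3:**
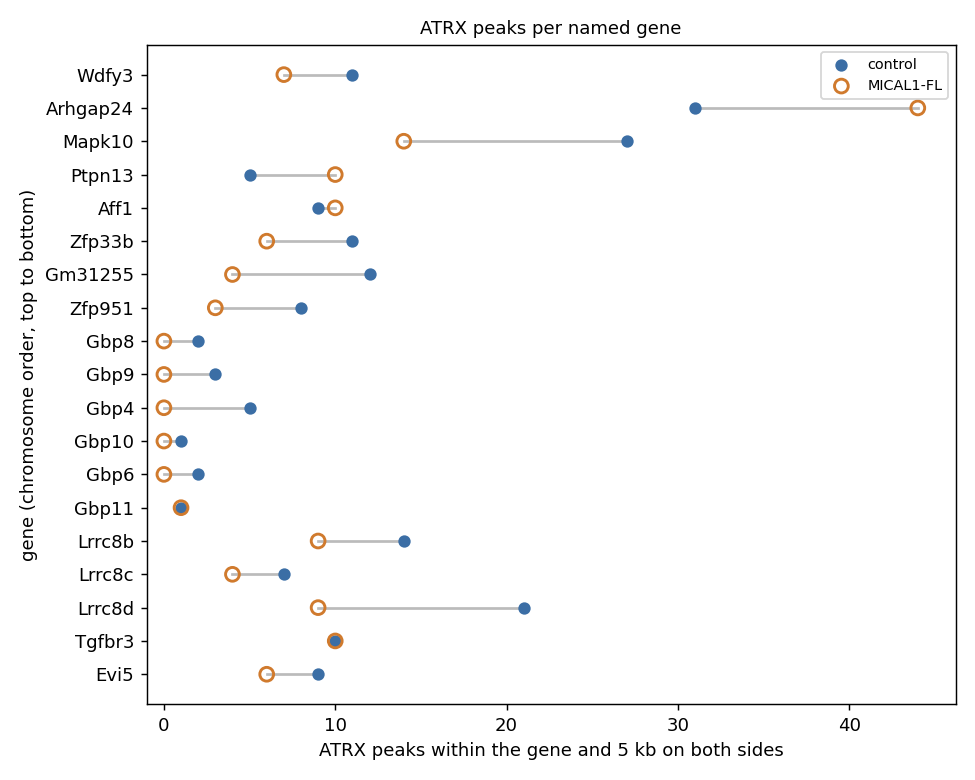
ATRX peaks at each gene, 5 kb flanks included (x axis), for the Gbp and Lrrc8 genes and for genes with at least 10 peaks (y axis, chromosome order), with filled blue points for the control and open orange points for the MICAL1-FL list. Gbp8, Gbp9, Gbp4, Gbp10 and Gbp6 stand at 0 in the MICAL1-FL list, and Arhgap24 is farthest to the right with 31 and 44.

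The bone and tooth matrix genes, a tandem array of secreted phosphoproteins shortly before window 6, had 8 control and 8 MICAL1-FL peaks in all. Dspp had 3 of each, Dmp1 2 and 3, Ibsp 2 and 1, Mepe 1 of each and Spp1, osteopontin, 0 in both lists. Sparcl1, which encodes a synapse-promoting protein secreted by astrocytes, had 0 control and 4 MICAL1-FL peaks. Among autosomal protein-coding genes with a MICAL1-FL peak, 20.9% had no control peak, and in the region these were 6 of 45. Cplx1, the complexin of fast transmitter release, had 3 and 2.

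The low MICAL1-FL number was not seen at the other Gbp genes of the genome. The array of chromosome 3, with Gbp5, Gbp7, Gbp3, Gbp2b and Gbp2, held 4 and 14 peaks with 5 kb on both sides (ratio 3.50, 1.10 to 14.6), so here the MICAL1-FL number was the higher. Gbp5, an inflammasome cofactor, had 1 and 5 peaks, Gbp7 2 and 3, Gbp3 1 and 3, Gbp2b 0 and 3 and Gbp2 0 and 1. The difference between the arrays was not tested, since the chromosome 5 array was part of what chose the region. The chromosome 3 array rests on few peaks, and autosomal stretches with a ratio as high as there were not counted.

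Genes of the interferon-gamma pathway list had 19 control and 24 MICAL1-FL peaks over 11 genes (interval of the ratio 0.663 to 2.44). In control neurons 10 of the 11 had any peak, and in MICAL1-FL neurons 9 did, where 66.4% and 63.7% of all autosomal protein-coding genes had one. The receptor genes Ifngr1 and Ifngr2 had 2 and 2, and 1 and 0 peaks, the kinase genes Jak1 and Jak2 had 4 and 5, and 1 and 3, and the transcription factor gene Irf1 had 1 of each. Other interferon-induced GTPases had 10 and 5 peaks over 7 genes (ratio 0.5, 0.134 to 1.61), with Gvin1 at 4 and 1 and Irgm1 at 1 and 1. Lrrc8a, on another chromosome, had 1 and 3, and Lrrc8e 1 and 0.

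Few peaks of the region were found in both lists. Counting any overlap of 1 bp or more, 32 of 408 control peaks were shared (7.84%, 5.43 to 10.9), where all autosomes gave 6.85%. Among those of the MICAL1-FL list, 31 of 301 were shared (10.3%, 7.11 to 14.3), where autosomes gave 7.23%. Both regional intervals include the autosomal share. Among peaks of at least 6 fragments in both lists, 14 of 188 in the control list were shared (7.45%, 4.13 to 12.2), against 4.92% on autosomes. In the MICAL1-FL list 14 of 117 were (interval 6.70% to 19.3%), which lies above the autosomal 5.70%. The region held more control peaks per Mb than all autosomes, 58.3 against 44.8 with all depths, and so more peaks to overlap. The shares were not adjusted for this, so more sharing in the region is not shown. By place, 0 of 20 control peaks of the Gbp array were shared (exact upper limit 16.8%), and 6 of 51 of the Lrrc8 array (11.8%, 4.44 to 23.9). The Gbp array held only 3 MICAL1-FL peaks, against 29 in the Lrrc8 array, so few of its control peaks could have been shared.

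The numbers of windows 6 to 8 and of the other windows were also counted by peak depth. Windows 6 to 8 were picked for the lowest ratios, and deeper peaks are part of the same peaks. A lower ratio there among deeper peaks is thus largely set by that choice and is no separate support. With peaks of at least 6 fragments, windows 6 to 8 held 78 and 26 peaks (ratio 0.333, 0.205 to 0.525), and the other windows 110 and 91 (ratio 0.827, 0.620 to 1.10). The autosomal ratio was 0.863 at that depth. With at least 7 fragments the numbers were 36 and 12 in windows 6 to 8 and 40 and 25 in the others. With at least 8 they were 16 and 7, and 20 and 6, so the stretch no longer stood below the rest of the region. Peaks of at least 6 fragments made up 46.1% of control and 38.9% of MICAL1-FL peaks of the region, against 43.1% and 39.3% on all autosomes.

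**Figure D4:**
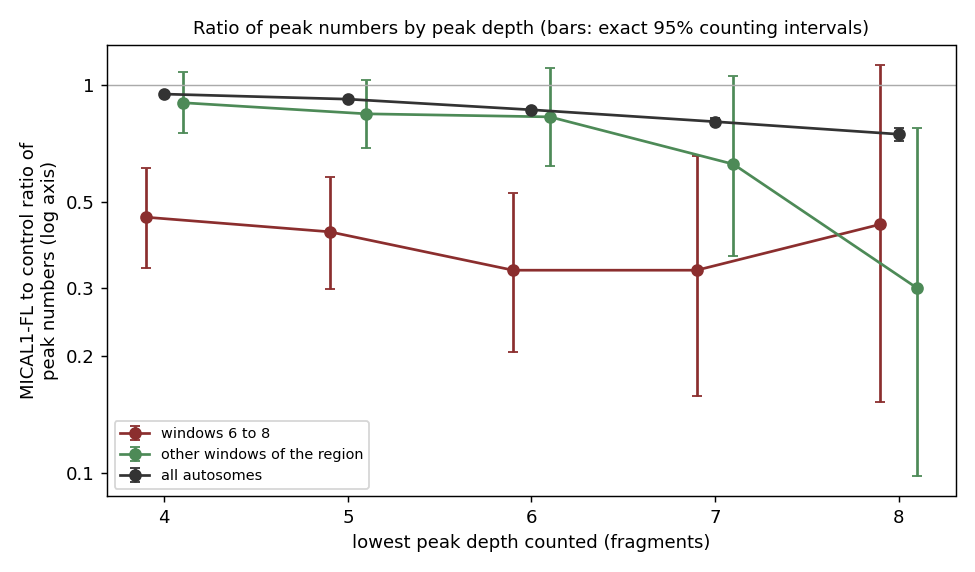
MICAL1-FL to control ratio of peak numbers (y axis, log scale) against the lowest peak depth counted (x axis, fragments) for windows 6 to 8, for the other windows of the region and for all autosomes, with exact 95% counting intervals as bars. Windows 6 to 8 lie at 0.456 with all peaks and at 0.333 from 6 and from 7 fragments on, while the other windows follow the autosomes up to 6 fragments and lie below them at 8. Windows 6 to 8 were picked for their low ratios.

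The place of peaks relative to genes was alike in the lists. Summits in protein-coding or Gbp genes made up 56.9% of control (51.9 to 61.7) and 56.5% of MICAL1-FL peaks (50.7 to 62.2) of the region. Summits outside any annotated gene made up 33.3% (28.8 to 38.1) and 35.5% (30.1 to 41.2). The share of peaks at the lowest background of the list was 65.2% for control and 75.4% for MICAL1-FL peaks, against 63.1% and 68.7% on all autosomes. The part of the input in the numbers of peaks was not tested.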

How the data were processed

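ATRX ChIP-seq peak lists of 1 control and 1 MICAL1-FL library were used, grouped by sample title, with input as background per the labels' protocols. The labels' control input was not analysed here, and no input of MICAL1-FL neurons is listed. Tools named per the submitters' processing notes, without their roles, are MACS 1.4.2, Bowtie 1.3.0, ChIPseeker 1.26.2 and SAMtools 1.9. Threshold, build and the program behind the lists: not given in the sources used here. The deposited score is the whole part of 10 times the -log10 p. The deposited fold is a ratio over background. The authors' caller also gave each peak a -log10 p and a -log10 q.

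Depth was inferred, not read: fold was taken as pileup + 1 over background + 1, and p from the upper Poisson tail beyond the pileup. This matched the -log10 p within 0.02 for 99.95% and 99.97% of peaks. Steps were tested on simulated data. Peaks were placed in windows by summit, and in genes by overlap with the gene and 5 kb on both sides (RefSeq, GRCm38.p6). That this build is the lists' own was inferred from the data alone: summits were 3.28 and 3.61 times as dense within 250 bp of RefSeq starts as 5 to 10 kb away. Coordinates printed are those of the lists, and for promoter stretches those of the RefSeq table. Densities use chromosome lengths up to the last peak. Intervals are conditional binomial for ratios, Clopper-Pearson for shares and Poisson for single counts, from SciPy 1.17.1. A window was called past a relative ratio of 1.5 with at least 20 peaks, a gene with at least 10.

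Named genes are all Gbp and Lrrc8 genes of the region, other genes with at least 10 peaks, the fixed lists (Gbp and Lrrc8 genes elsewhere, bone matrix genes, interferon-gamma pathway, other interferon-induced GTPases), the strongest 5 peaks of each list (tied at the end of the MICAL1-FL list, where 3 are given) and shared peaks in Gbp or Lrrc8 genes. Thoc2l, Abcg3, Zfp326, Barhl2, Sparcl1, Cplx1 and the gaps were chosen after their values were seen. Members and lists were chosen with earlier results of these data known. Exons, introns and sequence under peaks were not analysed here.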

Additional observations from a re-analysis of the deposited data

How the results depend on the processing

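The relative ratio of the region was 0.779 and lay between 0.721 and 0.797 with peaks of at least 6 fragments, with a -log10 p of at least 2, with peaks less than 1 kb apart merged and set against the rest of chromosome 5. It was 0.612 with a -log10 p of at least 3 (66 and 33 peaks) and 0.95 without windows 6 to 8, an alternative added after the data were seen. The Gbp array went from 0.158 to 0 with peaks of at least 6 fragments (8 and 0 peaks), and to between 0.158 and 0.296 under the other 5 alternatives. The Lrrc8 array lay between 0.429 and 0.638 under all 6. Without the flank (48 and 29 peaks) the interval of its relative ratio was 0.388 to 1.03, which includes the autosomal ratio. Windows at least 1.5 times lower were 4 of 12, against 3 of 13 with windows moved by 250 kb, 7 of 25 with windows of 250 kb and 2 of 6 with windows of 1 Mb. Genes at least 1.5 times lower were 6 of 13, against 12 of 25 with 25 kb on both sides. They were 7 of 12 without the flank and 4 of 6 with peaks of at least 6 fragments. Autosomal shares of windows and genes were not counted under these other settings, so none of these counts measures an excess in the region. The shared shares of control and MICAL1-FL peaks were 4.66% and 6.31% with summits within 250 bp, 3.43% and 4.65% with an overlap of at least 50% of both peaks, and 16.4% and 22.3% with peaks up to 1 kb apart. Of all 48 alternatives, 39 kept the value within its interval, spread or 1.5 times. The cause of the other 9 was not tested. No paired analysis was possible because there was 1 list per condition. With a median depth of 5 fragments, a single peak present in 1 list and not in the other is not a measured difference.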
